A study of Mus musculus with 21 samples.

Results

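The baseline of the series was set by 3 vehicle cultures among 21 arrays, and its description ranks all 22180 measured genes by their mean signal in those 3 arrays. The cells were osteoblasts prepared from the calvaria, the skull vault, of C57BL/6J mice aged 7 to 10 days. Each replicate was a separate preparation. At passage 2 the cells were kept from day 3 to day 10 in medium with 5 mM beta-glycerophosphate and 50 mg/L ascorbic acid, which support a mineralising matrix, followed by 24 h without serum. The vehicle cultures then received the carrier alone for 4 h in medium with 0.5% bovine serum albumin. The other 18 arrays, 3 for each group, came from cultures given a fragment of parathyroid hormone (PTH) for the same 4 h. The fragments were hPTH(1-31), hPTH(1-34), PTH(1-36), bPTH(3-34) and hPTH(7-34) at 100 nM, and the D-Trp12, Tyr34 form of bPTH(7-34) amide at 1000 nM. Those that start at residue 1, hPTH(1-31), hPTH(1-34) and PTH(1-36), are termed intact here. All groups shared the strain, the age, the passage, the differentiation medium and the serum deprivation, so no group shows the tissue before culture. The labels name the cells only as osteoblasts and give no sort or purification step. A gene was represented by 1 transcript cluster, a set of probes on the Affymetrix Mouse Gene 2.0 ST array. For a gene with several clusters, the brightest on average across the 21 arrays stood for it.

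Osteoblasts build bone by secreting a matrix rich in type I collagen and by raising local phosphate through the ectoenzyme alkaline phosphatase (Alpl). They arise from mesenchymal precursors under Runx2 and Sp7, and some become osteocytes once the matrix encloses them. Digests of the calvaria can also release other cells of the skull, among them macrophages, which depend on the receptor Csf1r, suture fibroblasts, cartilage cells and vessel cells. PTH acts on osteoblasts through the receptor Pth1r, which couples to cyclic AMP.

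Background was read from 1394 olfactory and vomeronasal receptor genes, whose products detect odours and pheromones and are not known as osteoblast genes. Their median vehicle signal was 1.74 log2 units. The 95th percentile of these genes was 3.50, 3.43 and 3.54 in vehicle cultures 1, 2 and 3, and a gene is called above background here when it passed that value in all 3. A stricter limit at the 99th percentile lay at 4.60, 4.63 and 4.63. By the first limit 13220 genes (59.6%) were above background, by the stricter limit 10139 (45.7%), and 7409 (33.4%) were below the first limit in all 3 cultures. The median gene had a signal of 4.44. A signal depends on how well its probes hybridise as well as on the amount of RNA, so ranks compare probe sets and are not transcript numbers. Among the sensory receptor genes 42 passed the limit themselves. The highest, Vmn1r233, reached 11.17 (11.09, 11.14 and 11.28), and the next, Vmn1r159, had 6.32.

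**Figure D1:**
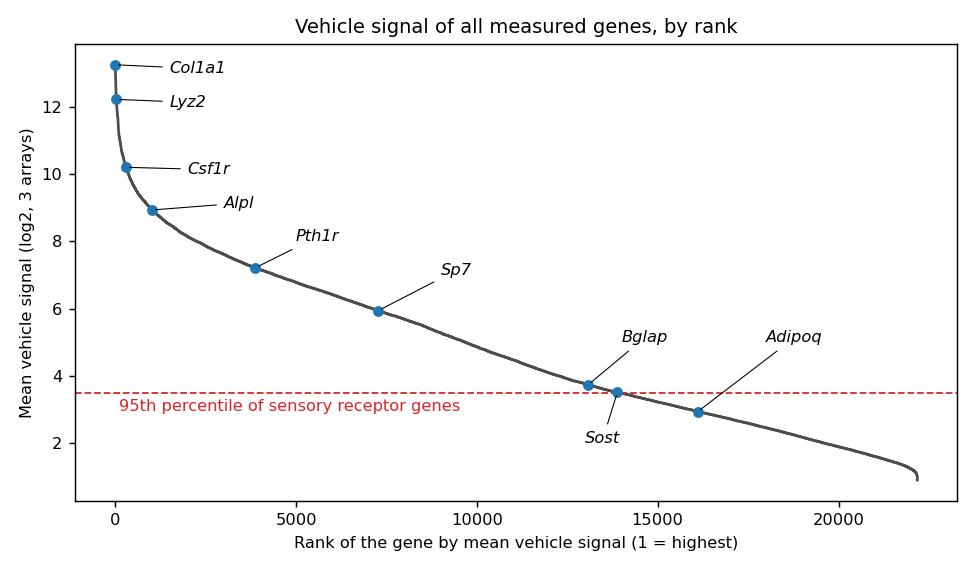
Mean vehicle signal (log2, 3 arrays) on the vertical axis against the rank of each of 22180 genes on the horizontal axis, with 9 genes marked and the mean background limit of 3.49 as a dashed line. Col1a1 and Lyz2 sit at the steep upper end of the curve, Sp7 in its middle, Bglap just above the limit, Sost almost on it and Adipoq below it.

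The highest vehicle signal of all genes belonged to Col1a1, the main chain of type I collagen, with 13.25, 13.21 and 13.28 in the 3 cultures. Bgn, a small proteoglycan of bone matrix, ranked next with 13.31, 13.27 and 13.10. The third was Rn7sk, a nuclear RNA that restrains transcription elongation, with 13.11, 13.18 and 13.23. In these genes the 3 cultures differed by at most 0.21 log2 units. Col1a2, the partner chain of Col1a1, had 12.90 ± 0.05 (mean ± SD here and below, n = 3 cultures), and Fn1, fibronectin, had 12.88 ± 0.05. Only 45 genes had a mean above 12.

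Secreted matrix proteins filled much of the top of the ranking. The matrix groups here were assembled after the values were seen and are given as counts without a test. The 100 highest genes, which ended at a signal of 11.21 with 11.18 for the next, held 6 of 44 measured collagen chains, and the 500 highest held 11. Beside the type I chains these 6 included Col12a1 (12.27), a collagen that coats fibrils, Col3a1 (12.01), the fibrillar collagen of soft connective tissue, and Col6a1 (11.96), which forms beaded filaments around cells. Of 11 small leucine-rich proteoglycans, which bind collagen fibrils, 7 were among the 100 highest. They were Bgn, Dcn (12.42 in each of the 3 cultures), Prelp (12.10), Ogn (12.05), Lum (12.01), Fmod (11.95) and Aspn (11.77). The thrombospondins Thbs1 (12.82) and Thbs2 (12.67), matricellular proteins that bind cells and matrix, Sparc (12.32), a collagen-binding protein of bone, and Postn (12.32), periostin, ranked among the first 30. Mmp2 (12.07), a gelatinase, Timp2 (11.94), which inhibits it, and Mmp14 (11.73), which activates it, also stood among the 100 highest.

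Many other leading genes serve general cell function, although the 100 highest also held the macrophage genes Lyz2, Cd68 and Fcer1g. They held secreted signal regulators too, among them Sfrp1 and Sfrp2, which bind Wnt proteins, and Igfbp4, which binds insulin-like growth factors, and the mesenchymal cadherin Cdh11. All but 1 of 10 measured genes of the mitochondrial genome, 9 in number, were among the 100 highest, led by ND4 (13.12) and ND5 (12.79) of complex I, COX1 (12.96) of complex IV and CYTB (12.91) of complex III. Cytoplasmic ribosomal proteins gave 6 of 66 among the 100 highest, with Rpl21 (12.23) in front. The elongation factors Eef1a1 (12.45) and Eef2 (12.13), the helicase Eif4a1 (12.41) and the glycolytic enzyme Gapdh (12.01) were there too. Ctsb (12.75) and Ctsd (12.11) are lysosomal proteases, Fth1 (12.73) is the heavy chain of the iron store ferritin, and B2m (12.91) is the light chain of class I histocompatibility molecules. The cytoskeletal genes Vim (12.61), vimentin, and Acta2 (12.29), the actin of smooth muscle and of contractile fibroblasts, completed this group. Small RNA genes were mostly near background: 176 of 567 passed the limit and the median of the 567 was 2.65. Even so, 4 were among the 100 highest and 18 among the 500 highest, led by Rn7sk, Mir5099 (12.80) and Snora33 (12.45).

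To see which lineage genes were detected, 258 marker genes in 18 lineage lists were looked up. Of these 236 were measured and 165 were above background. Over all genes 59.6% passed the same limit and 45.7% the stricter one, and each list count below stands beside these shares. For scale, the 500 highest genes are 2.25% of all genes and began at a signal of 9.67. As these are bulk RNA samples, fewer cells of a type and less RNA per cell cannot be told apart.

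**Figure D2:**
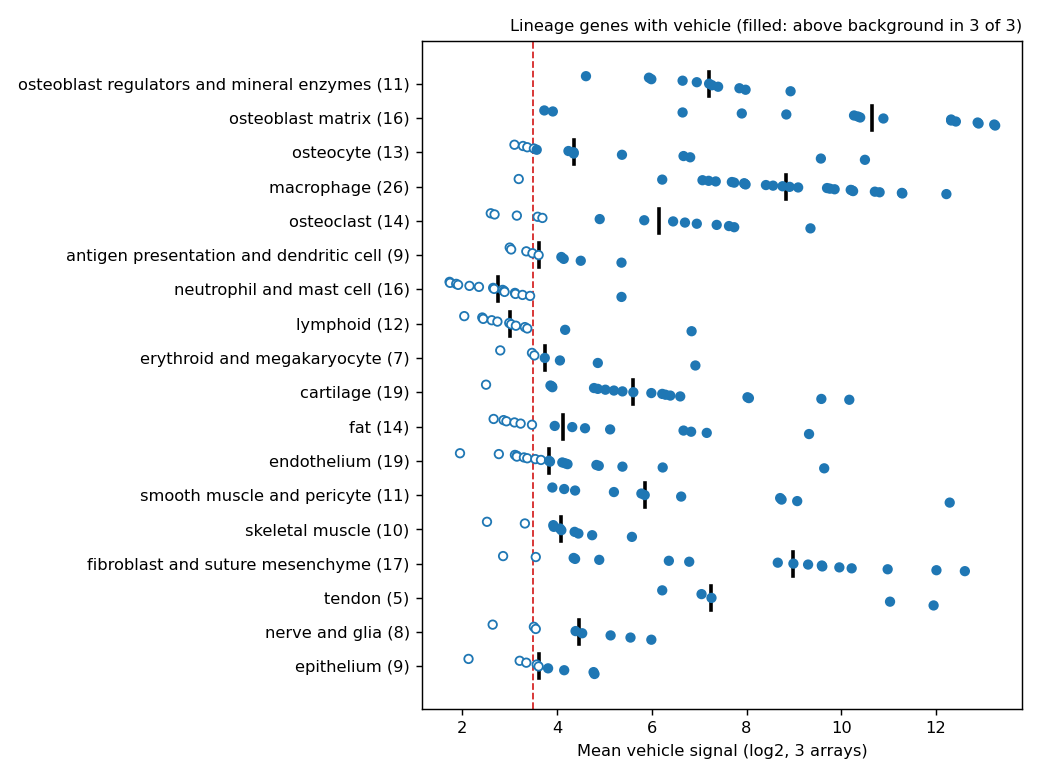
Mean vehicle signal (log2, horizontal axis) of each measured member of 18 lineage lists (rows, with the number of members in parentheses). Filled points were above background in all 3 cultures, open points were not, black bars mark list medians and the dashed line the mean limit of 3.49. Osteoblast matrix, macrophage and fibroblast genes reach far to the right, with medians of 10.65, 8.84 and 8.99, whereas most neutrophil, mast cell and lymphoid genes lie left of the line.

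Osteoblast matrix genes were the most strongly represented: all 16 measured members were above background, 11 were among the 500 highest genes, and the list median was 10.65. Besides the collagens and proteoglycans named above, Col5a2 (10.89) and Col5a1 (10.27), chains that nucleate collagen fibrils, Mgp (10.40), an inhibitor of mineralisation, and Serpinh1 (10.35), the collagen chaperone, were high. The low end of the list held the genes of late, mineralising osteoblasts. Bglap, osteocalcin, had 3.96, 3.62 and 3.62, which is above the first limit and below the stricter one in every culture. Ifitm5, a membrane protein of mineralising osteoblasts, had 3.98, 3.65 and 4.10. Ibsp, bone sialoprotein, lay between these extremes and varied most, with 7.28, 6.52 and 6.15. Spp1 and Bglap2 were not analysed here.

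All 11 measured osteoblast regulators and mineral enzymes were above background, 10 of them also by the stricter limit, and 0 were among the 500 highest (median 7.21). Alpl had 9.02, 9.03 and 8.75 (8.93 ± 0.16), rank 1016, so the third culture was the lowest by 0.27. Pth1r, the receptor for the hormone under study, had 7.20, 7.30 and 7.12 (7.21 ± 0.09), rank 3872. Among the transcription factors, Twist1, which holds back osteoblast maturation, had 7.98 ± 0.06, and Dlx5, which promotes it, had 7.40 ± 0.09. Atf4, needed for late osteoblast function, had 6.65 ± 0.10. Sp7, osterix, had 6.14, 5.69 and 5.98, and Dlx3 was the lowest member with 4.61 ± 0.19. The pyrophosphate exporter Ank (7.85) and the phosphate carriers Slc20a2 (7.27) and Slc20a1 (6.95) lay near the median of the list. Runx2, the defining regulator of the lineage, was not analysed here, and neither were Msx1, Phospho1 and Enpp1, since no cluster carried these as a single symbol. The type I collagen chains, Alpl, Sp7 and Pth1r were above background in all 3 cultures. As 59.6% of all genes passed the same limit, passing it is only a weak check of the labelled cell type.

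Osteocyte list genes ranged from 10.50 to 3.10, with a median of 4.35. Pdpn, a membrane protein of cells that extend dendrites into matrix, had 10.55, 10.57 and 10.39, and Gja1, the gap junction protein connexin 43, had 9.74, 9.47 and 9.50. Both are also made by cells other than osteocytes. Irx5 (6.81), Fam20c (6.67), a kinase of secreted matrix proteins, Ackr3 (5.37), a chemokine receptor, Phex (4.35), a peptidase of phosphate balance, and Ptprz1 (4.35) lay between. Several genes tied to embedded osteocytes were near background. Dmp1, a matrix phosphoprotein, had 3.35, 2.82 and 3.68. Sost, sclerostin, the osteocyte's Wnt inhibitor, had 3.29, 3.62 and 3.62. Mepe (3.37 ± 0.10), another matrix phosphoprotein, and Fgf23 (3.10 ± 0.31), the phosphate-regulating hormone, also failed the limit. Of 13 members 9 passed the first limit (69.2%, beside 59.6% of all genes) and 5 the stricter one. Dkk1, a secreted Wnt inhibitor, passed narrowly with 3.55, 3.55 and 3.60, and Sost with a mean of 3.51 lay just outside. Tnfsf11, RANKL, the cytokine that drives osteoclast formation, was low with 4.24 ± 0.05.

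Macrophage genes were detected almost without exception. Of 26 measured members 25 were above background by both limits, 11 were among the 500 highest genes and the list median was 8.84. Lyz2, the macrophage and neutrophil lysozyme, had 12.17, 12.32 and 12.18 and ranked 31 among all genes. Csf1r, the receptor for the macrophage growth factor, had 10.15, 10.27 and 10.17, and Adgre1, the F4/80 antigen, had 10.21, 10.33 and 10.15. The 3 values of each gene lay within 0.18 log2 units. Cd68 (11.29 ± 0.21), a lysosomal glycoprotein, Fcer1g (11.28 ± 0.26), the signalling chain of Fc receptors, Mrc1 (10.81 ± 0.03), the mannose receptor, and Ctss (10.71 ± 0.10), cathepsin S, completed the upper end. The complement genes C1qa (9.86), C1qb (9.76) and C1qc (8.41), the lineage factor Spi1 (7.07 ± 0.24) and the pan-leukocyte phosphatase Ptprc (7.74 ± 0.02) were all present. Aif1 was the lowest of the detected members with 6.22 ± 0.23. The exception was Cd163, the haemoglobin scavenger receptor, with 3.16, 3.09 and 3.31, below the limit in all 3 cultures.

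Averaged over its 26 members, the macrophage list had 8.81, 8.99 and 8.78 in vehicle cultures 1, 2 and 3, and between 8.58 and 9.09 in the 18 treated arrays. The osteoblast matrix list had 10.20, 10.10 and 10.12, and between 10.02 and 10.36 in the treated arrays. For both lists the vehicle arrays lay inside the range of the treated ones, so macrophage signal was a feature of all 21 cultures. Its part in any osteoblast value was not tested.

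**Figure D3:**
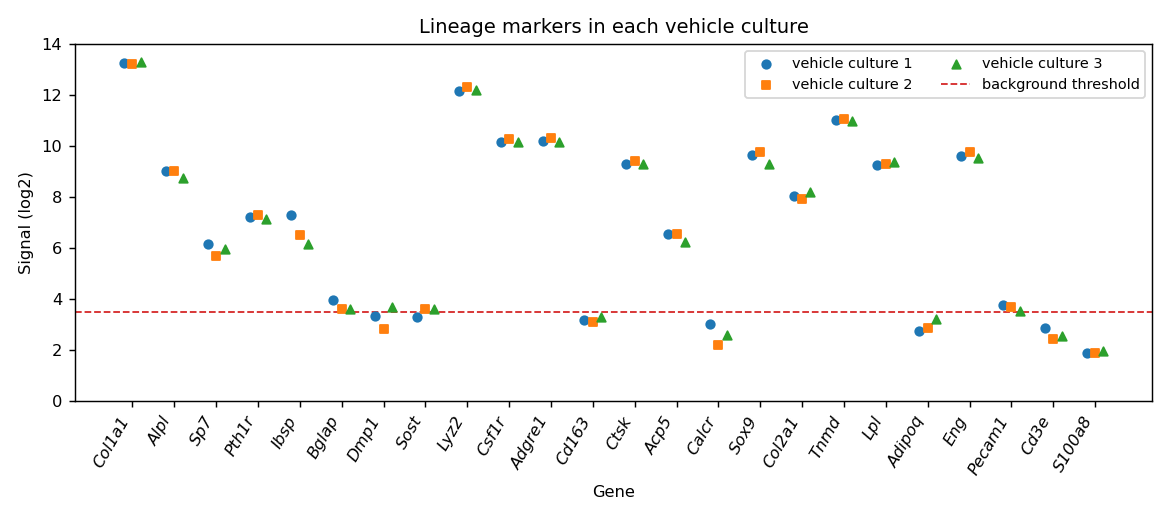
Signal (log2, vertical axis) of 24 lineage markers in each of the 3 vehicle cultures, 1 symbol per culture, with the mean background limit of 3.49 as a dashed line. For most genes the 3 symbols nearly coincide; Ibsp is the widest with 7.28, 6.52 and 6.15, and Lyz2 and Csf1r stand far above Bglap and Dmp1.

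Osteoclast genes were detected in part, by the first limit at a share near that of all genes. The 9 of 14 members above background (64.3%, beside 59.6% of all genes) also passed the stricter limit, as did 45.7% of all genes. Ctsk, the protease that degrades bone collagen, had 9.31, 9.42 and 9.31. Nfatc1 (7.74), the master factor of osteoclast formation, Itgb3 (7.63), Tcirg1 (7.37), Tnfrsf11a (6.70), the receptor for RANKL, and Acp5 (6.45), tartrate-resistant acid phosphatase, were detected as well. Several of these genes are also active in macrophages. Atp6v0d2 (5.84), a proton pump subunit with a part in cell fusion, Clcn7 (6.95), a chloride transporter of the resorbing membrane, and Mmp9 (4.90), a gelatinase, passed both limits as well. The other 5 members did not pass. Calcr, the calcitonin receptor, had 3.01, 2.20 and 2.58, Car2, carbonic anhydrase 2, had 2.60, 2.60 and 2.83, and Oscar had 3.38, 3.38 and 2.70. The fusion proteins Dcstamp (3.59 ± 0.31) and Ocstamp (3.69 ± 0.21) each passed the limit in 2 of 3 cultures.

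Other blood lineages were near background. Of 16 neutrophil and mast cell genes only Csf3r, the receptor for granulocyte colony-stimulating factor, passed (5.31, 5.51 and 5.26), and S100a8, an abundant neutrophil protein, had 1.88, 1.88 and 1.97. Of 12 lymphoid genes 2 passed, Cd4 with 6.70, 7.34 and 6.48 and Nkg7 with 4.17 ± 0.26. Cd3e, a defining part of the T cell receptor complex, had 2.62 ± 0.24 and Ms4a1, CD20 of B cells, had 2.04 ± 0.15. In the erythroid and megakaryocyte list 4 of 7 passed the first limit and 2 the stricter one, led by Pf4 (6.92 ± 0.05), a platelet chemokine also made by macrophages. Gata1, the erythroid master factor, had 2.80 ± 0.21. Of 9 genes for antigen presentation and dendritic cells 4 passed the first limit and only H2-Ab1, a class II histocompatibility chain, the stricter one (5.34, 5.37 and 5.37). The dendritic cell receptor Flt3 had 3.00 ± 0.27.

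Promoter sequence was compared between the genes of both osteoblast lists and those of the macrophage list. RefSeq windows of 250 bases before to 50 after the gene start (build GRCm38.p6) were matched by symbol for 16990 of the 22180 genes, including 18 of 26 macrophage genes and 18 of 27 genes of the osteoblast lists. Of 8 short words searched on both strands, chosen after the values were seen, GGAAGT contains the GGAA core bound by ETS factors such as Spi1. The core GGAA alone was in 96.3% of all windows, in 18 of 18 macrophage windows and in 17 of 18 osteoblast windows. The longer GGAAGT was in 27.6% of all windows, in 10 of 18 macrophage windows (55.6%) and in 1 of 18 osteoblast windows (5.56%). GAGGAAGT, which contains it, was in 3.44% of all windows, in 2 of 18 macrophage windows (11.1%) and in 0 of 18 osteoblast windows. TATAAA, the TATA box, was in 14.3% of all windows, in 6 of 18 osteoblast windows (33.3%) and in 3 of 18 macrophage windows (16.7%). It was in 9.17% of windows of genes above background and in 22.4% of those of genes not above background. CCGCCC, the GC box, was in 49.5% of all windows, 66.7% of osteoblast and 33.3% of macrophage windows. It was in 67.0% of windows of genes above background, in 70.6% of those of the 500 highest genes and in 22.2% of those of genes not above background. TGTGGT, the core recognised by RUNX factors, was in 16.6% of all windows, 16.7% of osteoblast and 22.2% of macrophage windows. CCAAT was in 41.6% of all windows, 50.0% of osteoblast and 33.3% of macrophage windows. TGACGTCA was in 2.65% of all windows and in 0.0% of both osteoblast and macrophage windows. These shares describe letters in a window and say nothing of binding. Lyz2 is shown as the highest macrophage gene and Bglap as the lowest osteoblast matrix gene, each as the 250 bases before its start, 5′ to 3′ on the gene's minus strand. The Lyz2 window is chr10:117282273-117282522, where capitals mark GGAAGT read on the opposite strand, 100 to 95 bases before the start. The Bglap window is chr3:88384467-88384716, where capitals mark TATAAA, 27 to 22 bases before the start.
Lyz2: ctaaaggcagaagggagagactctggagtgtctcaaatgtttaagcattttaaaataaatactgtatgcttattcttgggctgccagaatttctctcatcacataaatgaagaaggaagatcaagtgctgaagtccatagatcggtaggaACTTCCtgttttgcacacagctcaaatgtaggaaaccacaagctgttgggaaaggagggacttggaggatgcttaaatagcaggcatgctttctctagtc
Bglap: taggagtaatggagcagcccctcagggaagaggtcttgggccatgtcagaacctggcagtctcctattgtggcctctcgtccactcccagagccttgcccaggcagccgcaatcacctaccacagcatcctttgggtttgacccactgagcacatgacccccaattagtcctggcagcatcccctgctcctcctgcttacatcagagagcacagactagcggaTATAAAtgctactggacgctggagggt

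Genes of the fibroblast and suture mesenchyme list were strongly represented, and bulk RNA does not show which cells made them. Of 17 fibroblast and suture mesenchyme genes 15 were above background, 5 were among the 500 highest and the median was 8.99. After Vim and Lum these were led by Prrx1 (10.98 ± 0.08), a factor of limb and skull mesenchyme, Pdgfra (10.22 ± 0.04) and Pdgfrb (9.96 ± 0.12), receptors for platelet-derived growth factor. Gli1, a target of hedgehog signalling that marks suture stem cells, was below the limit with 3.03, 2.73 and 2.82. Twist2, a factor of dermal and skull mesenchyme, passed the limit in cultures 1 and 2 only (3.92, 3.87 and 2.87).

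All 5 tendon genes were above background by both limits. Tnmd, tenomodulin, a membrane protein regarded as a marker of mature tendon and ligament cells, had 11.03, 11.06 and 11.00 and ranked 126. Fmod, fibromodulin, had 11.95 ± 0.09. The tendon transcription factors Scx and Mkx had 7.05 ± 0.17 and 6.22 ± 0.18, and Thbs4 had 7.26 ± 0.01. Within smooth muscle and pericyte genes, 11 of 11 passed the first limit and 8 the stricter one. Acta2, Tagln (9.07), Smtn (8.74) and Cnn1 (8.71), which belong to the contractile actin apparatus, were high. Myocd, the master factor of smooth muscle, was close to the limit with 3.58, 3.99 and 4.12.

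Cartilage genes were split. Of 19 members 18 passed the first limit and 14 the stricter one, with a median of 5.61. Col11a1, a fibrillar collagen of cartilage that other connective tissue also makes, had 10.17 ± 0.20, and Sox9, the master factor of the lineage, had 9.64, 9.78 and 9.31. Col2a1, the type II collagen that defines cartilage, had 8.04, 7.91 and 8.20, and Comp, a cartilage and tendon matrix protein, had 8.02 ± 0.09. Acan, the large cartilage proteoglycan, was low with 4.78 ± 0.14. Col10a1, the collagen of hypertrophic cartilage, had 3.89 ± 0.12, and Matn1, matrilin 1, was below the limit in all 3 cultures (2.29, 2.19 and 3.02).

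Members of the fat list ranged from 9.32 to 2.66, with a median of 4.13. Lpl, lipoprotein lipase, had 9.26, 9.31 and 9.38, Cebpa 7.16 ± 0.13, Pparg 6.83 ± 0.27 and Pnpla2, which hydrolyses stored fat, 6.67 ± 0.27. Adipoq, adiponectin, had 2.74, 2.85 and 3.21, Fabp4 2.86, 3.35 and 3.49, and Lep, leptin, 2.66 ± 0.23. These 3 were below the limit in every culture. The lipid droplet coat genes Plin4 (4.58, 4.74 and 4.45) and Plin1 (4.29, 3.66 and 3.90) passed the first limit in every culture, as did Dgat2 (5.12 ± 0.23), an enzyme of fat synthesis. Of 14 members 8 passed the first limit (57.1%, beside 59.6% of all genes) and 5 the stricter one. Lpl, Cebpa and Pparg are active in macrophages as well.

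Endothelial genes were mostly low. Of 19 members 10 passed the first limit (52.6%, beside 59.6% of all genes) and 5 the stricter one, and the median was 3.83. Eng, a co-receptor for TGF-beta that mesenchymal cells also carry, was the exception with 9.62, 9.76 and 9.53. Erg, an endothelial and cartilage factor, had 6.23 ± 0.26, and Cdh5, the cadherin of vessel junctions, 4.83 ± 0.03. Pecam1, CD31, was near the limit with 3.76, 3.68 and 3.53, and Vwf, von Willebrand factor, just outside it with 3.47, 3.54 and 3.60. Emcn, endomucin, was at 1.92, 1.99 and 1.94.

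The remaining 3 lists, of tissues outside the connective and blood lineages, were low, and their counts rest on the limit. Skeletal muscle passed with 8 of 10 genes by the first limit and 1 by the stricter one, Acta1 (5.58 ± 0.06), the actin of skeletal muscle. Nerve and glia passed with 5 and 3 of 8, the highest being Syn1 (5.99 ± 0.04), a synaptic vesicle protein. Epithelium passed with 4 and 1 of 9, the highest being Krt8 (4.79 ± 0.11), a keratin of simple epithelia. Epcam, a defining epithelial adhesion molecule, had 2.13 ± 0.21.

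Most genes of the hormone's signalling pathway were detected in the vehicle cultures. Of 30 genes of the PTH receptor and cyclic AMP pathway 26 were above background, with a median of 6.92. The catalytic subunits of protein kinase A, Prkaca (9.22 ± 0.11) and Prkacb (8.52 ± 0.11), and the G protein subunits Gna11 (9.11 ± 0.03) and Gnaq (8.50 ± 0.09) were the highest. Gnas, which encodes the stimulatory G protein subunit, had 5.59 ± 0.12 on its cluster. Among the adenylyl cyclases, which make cyclic AMP, Adcy2 (7.57), Adcy7 (7.04) and Adcy6 (6.91) were the highest. The ligand gene Pth (2.07 ± 0.19) and the related receptor Pth2r (2.93 ± 0.12) were below the limit in all 3 cultures. Of 26 other hormone and growth factor receptors 23 passed, led by Bmpr2 (10.68 ± 0.12), Tgfbr2 (10.27 ± 0.08) and Lrp6 (10.11 ± 0.04), receptors for BMP, TGF-beta and Wnt signals. The vitamin D receptor Vdr had 7.16 ± 0.14.

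Genes of cell division were detected after 24 h without serum. All 12 cell cycle genes were above both limits, among them Ccnd1 (9.75 ± 0.04), a cyclin of early division, Mki67 (8.65 ± 0.15), the Ki-67 antigen, Top2a (8.22 ± 0.10) and Cdk1 (7.19 ± 0.02). Each culture carried RNA of both sexes. Xist, which silences the inactive X chromosome of females, had 6.80, 6.50 and 6.71. The Y-linked genes Uty (5.77, 5.64 and 5.81), Eif2s3y (6.16, 5.49 and 5.42) and Kdm5d (5.05, 4.55 and 4.65) passed the first limit in all 3 cultures. Tsix and Ddx3y were not analysed here.

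The 3 vehicle cultures resembled each other closely. Pearson's r over all genes within the vehicle group was 0.9923, 0.9915 and 0.9907, as a description across genes of arrays normalised together. Among the 13220 genes above background the median SD was 0.12, and in the other 6 groups it ran from 0.107 to 0.132 over the same genes. Among the 500 highest genes it was 0.08, and 0 of these 500 spanned more than 1 log2 unit. Over all genes above background 44 (0.333%) spanned more than 1 unit.

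Small RNAs were frequent among these variable genes: 9 of 176 small RNA genes spanned more than 1 unit (5.11%), against 35 of 13044 other genes (0.268%). All 9 were highest in vehicle culture 3. Snora73b, a small nucleolar RNA, had 6.65, 7.14 and 8.99, and its relative Snora73a had 6.51, 6.93 and 8.58. The mean of the 9 genes was 5.77, 5.88 and 7.08 in the vehicle cultures. In the treated groups the array numbered 3 was the highest for between 1 of the 9 genes, with bPTH(7-34), and 8, with hPTH(1-34). No test was made of this spread. The most variable gene of other kinds, Rabggtb, a prenyltransferase subunit whose introns host small nucleolar RNAs, followed the same order of cultures with 4.69, 4.82 and 6.63.

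A few other genes stood apart in 1 culture. Among the 15 most variable genes other than small RNAs, 3 that respond to interferon were highest in culture 2: Ifi209 had 4.29, 5.58 and 4.64, Ifit3 had 4.77, 5.96 and 5.12, and Trim30d had 5.80, 6.50 and 5.29. Nanp, Tbx2, Ass1, Zfp976 and Atp5d of the same 15 were also highest in culture 2. Myd88, an adaptor of Toll-like receptors, was lowest in culture 3 (8.16, 8.01 and 7.02), as was Atp5d, a subunit of ATP synthase (8.30, 8.44 and 7.36). Of lineage genes above background Ibsp had the widest range, 1.13 log2 units.

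**Figure D4:**
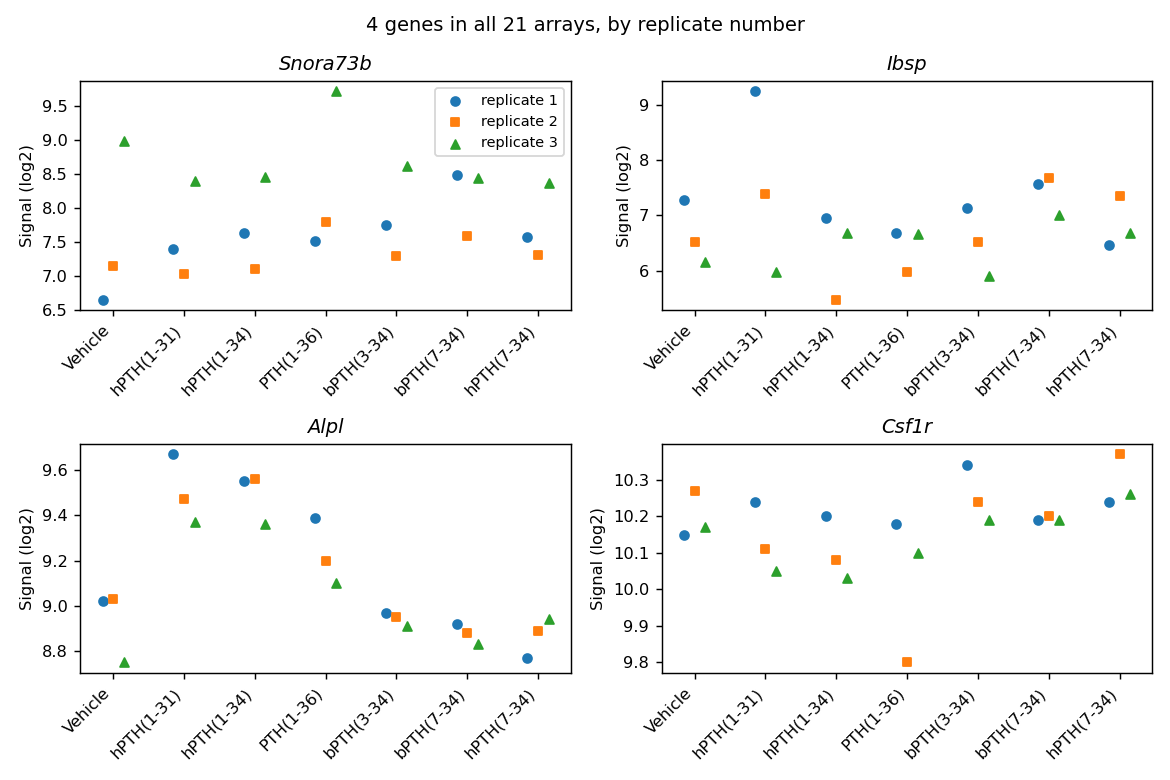
Signal (log2, vertical axes with their own ranges) of Snora73b, Ibsp, Alpl and Csf1r in all 21 arrays, by treatment on the horizontal axis and with symbols for the replicate number. Snora73b in vehicle reaches from 6.65 to 8.99, Ibsp is scattered in most groups, Alpl lies above all vehicle arrays with each of the 3 intact fragments, and the vehicle values of Csf1r lie within 0.12.

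Treated cultures were then set against this baseline, with all 6 contrasts sharing the same 3 vehicle arrays. Over all genes 1930 (8.7%) were called with hPTH(1-31) at an adjusted p under 0.05 in limma, 1917 (8.64%) with hPTH(1-34) and 1603 (7.23%) with PTH(1-36). Among the 500 highest vehicle genes the counts were 61 (12.2%), 64 (12.8%) and 48 (9.6%), and among the 236 lineage genes 32 (13.6%), 27 (11.4%) and 25 (10.6%). Of the called members of the 500, 21, 18 and 15 were higher than vehicle and 40, 46 and 33 lower, beside 4.38%, 3.9% and 3.68% of all genes called higher and 4.32%, 4.74% and 3.54% called lower. The 500 were chosen by the same vehicle values that the contrasts use, so the direction of their calls is a description and not a result. With bPTH(3-34) and bPTH(7-34) 0 genes of 22180 were called (0.0%), and with hPTH(7-34) 16 (0.0721%), 13 higher (0.0586%) and 3 lower (0.0135%), of which 0 were lineage genes or among the 500. The fit with the replicate number as a block also called 0 of the 500 and 0 lineage genes with these 3 fragments. At an unadjusted p under 0.05 the lineage genes gave 14, 9 and 19 with these 3 fragments (5.93%, 3.81% and 8.05%) and the 500 highest genes 4, 5 and 8 (0.8%, 1.0% and 1.6%), beside 5.92%, 5.19% and 8.19% of all genes. The 500 had a smaller vehicle spread (median SD 0.08) than all genes above background (0.12), and the fit set no trend of spread with signal. Their low shares are therefore not read as a lack of response. When only the 6 arrays of a contrast were fitted, 25, 30 and 19 of the 500 were called with hPTH(1-31), hPTH(1-34) and PTH(1-36).

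Most of the baseline profile was not called as changed. Called in 0 of 6 contrasts were 428 of the 500 highest genes, 202 of the 236 lineage genes and 19572 of all 22180 genes. In limma's F test over the 6 contrasts together, 14.8% of the 500 highest and 15.3% of the lineage genes had an adjusted p under 0.05. Over all genes the share was 12.2%, so a lack of calls is not particular to the baseline genes. Of the macrophage list 1 of 26 genes was called in any contrast, the Fc receptor gene Fcgr1, which rose by 0.49 (SE 0.14) with hPTH(1-34), from 7.69 to 8.17 (adjusted p = 0.0298). The median difference of the macrophage genes from vehicle was -0.035, 0.003 and -0.108 with hPTH(1-31), hPTH(1-34) and PTH(1-36), beside -0.017, -0.013 and -0.02 over all genes. With bPTH(3-34), bPTH(7-34) and hPTH(7-34) it was 0.052, 0.028 and 0.148, beside 0.0, -0.007 and 0.0 over all genes.

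Lineage genes called in at least 3 contrasts numbered 20, all of them with the 3 intact fragments and each in 1 direction. Of these 10 rose and 10 fell. The share of all genes called in at least 3 contrasts was not counted, so 20 of 236 cannot be called many or few. Taken singly, hPTH(1-31), hPTH(1-34) and PTH(1-36) called 8.7%, 8.64% and 7.23% of all genes. With bPTH(3-34), bPTH(7-34) and hPTH(7-34) only 0, 0 and 16 of all genes were called. Calls limited to the intact fragments are thus not particular to lineage genes. Tnfsf11 had 7.39, 7.29 and 7.39 with hPTH(1-31), far outside its vehicle values, a rise of 3.12 (SE 0.19, adjusted p = 2.14e-09), and rose by 3.12 with hPTH(1-34) and 3.11 with PTH(1-36). Of the other osteocyte list genes Pdpn rose by 0.94, 0.95 and 0.84, Gja1 by 0.80, 0.82 and 0.89 and Ackr3 by 1.21, 1.24 and 1.14. Mgp was the only osteoblast matrix gene called, with rises of 0.50, 0.49 and 0.44. Cnn1, calponin, rose by 2.08, 2.10 and 1.88, and Prg4, the joint lubricant lubricin, by 1.98, 2.29 and 1.28.

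Pth1r fell from 7.20, 7.30 and 7.12 in vehicle to 6.20, 6.17 and 5.95 with hPTH(1-31), to 6.40, 6.04 and 5.89 with hPTH(1-34) and to 6.09, 6.11 and 6.37 with PTH(1-36). No array of these groups overlapped the vehicle arrays. The changes were -1.10, -1.10 and -1.02 (SE 0.12 each; adjusted p = 5.07e-06, 5.45e-06 and 1.66e-05). Scx, the tendon factor, fell from 6.89, 7.03 and 7.22 to 5.30, 5.78 and 5.47 with hPTH(1-31), a change of -1.53 (SE 0.15, adjusted p = 1.32e-06), and by 1.43 and 1.31 with the other intact fragments. Mkx fell by 0.66, 0.58 and 0.49, whereas Tnmd and Fmod, the highest tendon genes, had differences of -0.05, -0.04 and 0.04 and of -0.10 in each and were not called. Sp7 fell by 0.64, 0.56 and 0.71. Its call with hPTH(1-34) was lost without vehicle culture 1 (adjusted p = 0.0704) and without hPTH(1-34) array 3 (adjusted p = 0.0639). When only the 6 arrays of a contrast were fitted, Sp7 was called with none of the 3 intact fragments (adjusted p = 0.0598, 0.0814 and 0.0642). The same fit also lost the calls of Mgp, Mkx, Pparg, Smtn and Cspg4 with PTH(1-36) (adjusted p = 0.0662, 0.0965, 0.057, 0.0835 and 0.158) and those of Pparg, Tubb3, Tek, Smtn, Cspg4 and Gzmb with hPTH(1-34) (adjusted p = 0.0711, 0.0551, 0.0983, 0.124, 0.13 and 0.0713). Calls of Tek, Smtn, Cspg4 and Gzmb with hPTH(1-34) were lost without vehicle culture 2 (adjusted p = 0.176, 0.0846, 0.0955 and 0.0777), and some also without vehicle culture 1 or an hPTH(1-34) array. With PTH(1-36) the calls of Tek and Cspg4 were lost without vehicle culture 2 (adjusted p = 0.0548 and 0.137), that of Cspg4 also without PTH(1-36) array 1 or 2 (adjusted p = 0.107 and 0.0819), and that of Gzmb without vehicle culture 1 (adjusted p = 0.053). With hPTH(1-31) the call of Gzmb was lost without vehicle culture 1 or hPTH(1-31) array 1 (adjusted p = 0.0907 and 0.0946). The vehicle signal of Gzmb, 2.74, was itself not above background. Alpl rose by 0.57 and 0.56 with hPTH(1-31) and hPTH(1-34) (adjusted p = 0.000961 and 0.00125), while its difference with PTH(1-36) was 0.30 and not called (adjusted p = 0.0951). With PTH(1-36) Alpl had 9.39, 9.20 and 9.10, all above the vehicle arrays. When only the 6 arrays of a contrast were fitted, the call of Alpl with hPTH(1-31) was lost (adjusted p = 0.0537). Whether the fragments differ in Alpl was not tested.

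The calls with the smallest adjusted p among the 500 highest vehicle genes included changes in both directions. Their directions are a description, since the same vehicle values chose the 500. Rspo3, an enhancer of Wnt signalling with a vehicle mean of 9.93, fell by 1.83, 1.67 and 1.51 with hPTH(1-31), hPTH(1-34) and PTH(1-36) (SE 0.08 each). Cemip, a hyaluronan-degrading protein, fell from 10.20 by 1.70, 1.77 and 1.56. Adamts5, a protease of cartilage proteoglycan, fell from 9.71 by 1.06, 1.00 and 0.83. Dctn4, a dynactin subunit, went the other way and rose from 9.74 by 1.13, 1.08 and 1.04.

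**Figure D5:**
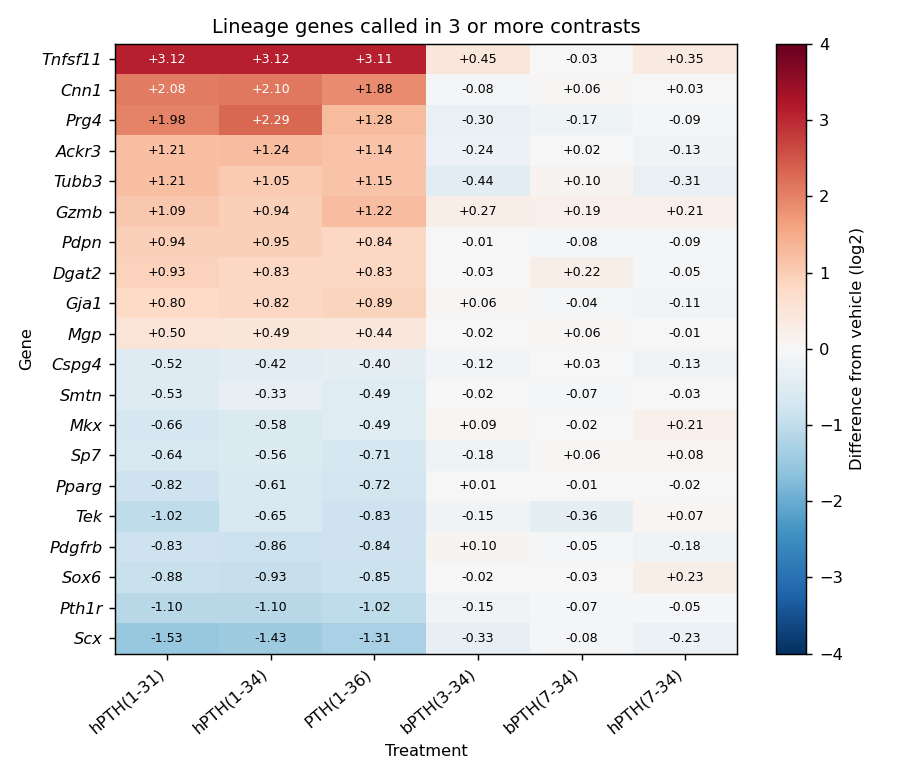
Difference from vehicle (log2, colour and printed value) of the 20 lineage genes called in at least 3 contrasts (rows) for the 6 fragments (columns). The 3 left columns, the intact fragments, run from +3.12 for Tnfsf11 to -1.53 for Scx, whereas none of the values in the 3 right columns passed the test.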

How the data were processed

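The authors' deposited table gave 1 signal per transcript cluster and array, read here as log2 from its range (0.25 to 13.6); for its making the submitters' processing notes list Affymetrix Expression Console and RMA, without steps, versions or the base of the logarithm. A genome build for the clusters is not given in the sources used here. RMA evens out array distributions, so a shift of all genes cannot be seen. Array medians were 3.49 to 3.61. The platform annotation gave 1 symbol to 23521 of 41345 clusters, several to 1814 and none to 16010. One cluster per symbol left 22180 genes. Arrays have no read depth; their number limits the precision.

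The 3 vehicle arrays were described with no test. A limma fit (version 3.58.1 under R 4.3.3; lmFit, then eBayes) covered the 7 groups and 21 arrays, with two-sided p-values adjusted by Benjamini-Hochberg over 22180 genes. Replicates are separate preparations per the labels.

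Members and lists were chosen with earlier results of these data known. Named genes were drawn from the 40 highest in vehicle, without predicted genes and small RNAs, and from the 6 markers. Further sources were the 5 highest and 3 lowest of each lineage list, the 15 most variable and the sex chromosome list. Lineage genes called in at least 3 contrasts were also drawn on, as were the 3 genes with the smallest adjusted p of each contrast among the 500 highest. Not every gene of these sets is named, and no rule is given for the choice among them. Other genes named were chosen after their values were seen.

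On simulated data for hPTH(1-31) against vehicle (22180 genes, 5 runs with 200 changed genes each) limma recovered 45.4% of 1.5-fold, 89.6% of 2-fold and 99.4% of 4-fold changes. Of its calls 4.18% were false. The simulated arrays had independent normal noise and 200 changed genes in 1 group, whereas 1930 genes were called in the data. These shares therefore need not hold for the data. Alternatives changed the background limit, the choice of cluster, the arrays fitted, centring and the replicate block.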

Additional observations from a re-analysis of the deposited data

Results flagged for a closer look

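Signal outside the named genes was also above background. Of 16010 clusters that the platform annotation does not name, 4452 (27.8%) passed the background limit in all 3 vehicle cultures. The highest of them had 13.5 log2 units, and 46 had a mean above 12, beside 45 named genes. Of 1814 clusters with several gene symbols, 981 passed the limit in all 3 cultures. The first kind carries no gene name and the second no single one, so both were left out of every comparison.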

How the results depend on the processing

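Over 42 results and 434 alternatives, 395 alternatives stayed within 1.5 times the reported count. These include counts of 0 that stayed 0, as with bPTH(3-34) and bPTH(7-34). Leaving out a vehicle array can only keep or raise the counts above background, so the tally is a weak measure of stability. The background limit mattered most, for lists near it. With the 99th percentile, the array median and a panel of keratin-associated genes as the limit, the members above background were 5, 5 and 5 for osteocyte genes (9 reported), 1, 1 and 1 for antigen presentation (4), 1, 1 and 1 for lymphoid genes (2), 2, 2 and 1 for erythroid and megakaryocyte genes (4), 5, 5 and 4 for fat (8), 5, 5 and 3 for endothelium (10), 1, 2 and 1 for skeletal muscle (8), 3, 3 and 3 for nerve and glia (5), and 1, 2 and 0 for epithelium (4). The keratin-associated panel left 11 of 18 cartilage genes, and the mean of all clusters of a gene left 2 epithelial genes. Macrophage, osteoblast, osteoclast, tendon and fibroblast counts stayed within 1.5 times under every limit. Fitting only the 6 arrays of a contrast, which leaves fewer arrays to estimate the spread, called 928, 936 and 606 of all genes, and 25, 30 and 19 of the 500 highest, with hPTH(1-31), hPTH(1-34) and PTH(1-36), 16 and 15 lineage genes with the latter pair, and 0 genes with hPTH(7-34). Leaving out 1 array at a time gave 6 to 24 genes with hPTH(7-34) (16 reported), the 6 without vehicle culture 3. The replicate numbers were not taken to pair the cultures, since not every same-numbered pair correlated above 0.1, a limit that shared preparations need not reach. Deviations of the 63 same-numbered pairs correlated at -0.0809 to 0.161 over all genes (1 pair over 0.1). Over genes above background the range was -0.0779 to 0.283 (27 pairs over 0.1), with a mean of 0.0806 beside -0.0401 for pairs of unlike numbers. In each set 15 of 21 arrays correlated best with their own number, a hint from the data and not the design. With the number as a replicate block 2179, 2190 and 1945 genes were called with the 3 intact fragments, and no count moved by over 1.5 times. Signals near the limit have no reliable order.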
